A study of Mus musculus with 8 samples.

Results

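The factor inactivated in these cells, TAF4A, is a subunit of the general transcription factor TFIID, and NF-YA binding was therefore examined at the genes of the transcription machinery itself. These are the genes of TFIID and other TAFs, of the general factors of RNA polymerase II and III, of the polymerases, of Mediator and of elongation factors. Members were chosen by name, as peaks of coding genes whose symbols begin with Tbp, Ell, Gtf2, Gtf3 or Polr1 to Polr3, begin with Taf, Med or Supt and a number, or are *Cdk7*, *Cdk8*, *Cdk9*, *Ccnt1*, *Ccnt2* or *Ccnh*. The rule took 34 of 7196 peaks, or 34 of 3837 peaks of coding genes, and they belong to 27 genes. The name rule itself uses no measured value.

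Muscle stem cells (MuSCs), from which skeletal muscle regenerates, came from C57BL/6 mice and were sorted by flow cytometry and kept in culture, where they were activated and proliferating. In Taf4asKO mice both copies of *Taf4a*, which the table lists as *Taf4*, carried loxP sites around exons 11 and 12, and a tamoxifen-inducible Cre driven from *Pax7*, a gene active in these stem cells, removed the exons in adult animals. The labels give the other genotype as Control, and as WT in the sample titles, with no more detail. By the study's methods such mice carried the floxed alleles too, without Cre or with it, and which of these applied to the libraries, and whether tamoxifen was given, is not stated. CUT&RUN, in which an antibody guides a nuclease to cut out the DNA near a protein, was done with an NF-YA antibody in 2 libraries per genotype. The labels list 8 libraries in 4 groups, and the IgG libraries of both genotypes were not analysed here. How many animals stand behind each library is not given, so that p-values measure only the spread between these libraries, which may be technical.

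NF-Y is a trimer of NF-YA, NF-YB and NF-YC that binds the CCAAT pentamer, most often shortly upstream of gene starts, and NF-YA carries the part that reads the sequence. TFIID, which consists of TBP and TBP-associated factors (TAFs), is the first factor to settle on promoters of RNA polymerase II. Mediator connects activators with this polymerase, while RNA polymerase III, with its own factor TFIIIC, transcribes tRNA genes and other short RNAs. The values are reads per peak that the authors normalised between libraries and rounded. The 4 libraries held 111269 to 734552 reads in peaks. A read was worth 1.04 and 3.26 units in control replicates 1 and 2 but 0.43 and 0.68 in Taf4asKO replicates 1 and 2, so that depth and genotype cannot be told apart. Of *Pax7*, *Myf5*, *Myod1*, *Itga7*, *Vcam1* and *Des*, looked up as markers of muscle stem cells, *Myod1* alone had peaks. Binding of NF-YA does not measure expression, and the labelled cell type could not be checked from it.

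NF-YA peaks were present at a minority of the machinery genes. Of 123 coding genes in the GENCODE M21 annotation that the name rule covers, 27 had an assigned peak (22.0%, 95% Wilson interval 15.6 to 30.1%), against 3197 of all 21951 coding genes (14.6%). When any peak centred within 1000 bases of the gene start was counted, whichever gene it was assigned to, the numbers were 30 of 123 (24.4%) and 2683 of 21951 (12.2%). The 3 genes added in this way share their start region with a neighbour to which the peak was assigned. They are *Polr1d*, a subunit of RNA polymerases I and III, *Gtf2e1*, the large subunit of TFIIE, and *Gtf3c2* of TFIIIC. The differences from all coding genes were not tested, and those genes were not matched to the machinery genes for activity in these cells.

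Genes with an assigned peak in the merged list of all libraries came from most of the complexes. Such a peak can be weak in either genotype. Mediator contributed 10 of its 31 genes, namely *Med1*, *Med7*, *Med13*, *Med15*, *Med19*, *Med21*, *Med24*, *Med25*, *Med29* and *Med30*. TFIID contributed 4 of 16, *Taf1*, *Taf4*, *Taf4b* and *Taf8*, and no peak was assigned to *Tbp*. The co-activator SAGA, which shares subunits with TFIID, had peaks at 2 of 5 genes, *Taf6l* and *Supt20h*. RNA polymerase III had 3 of 10, among them *Polr3gl* and *Polr3k*, whereas of the 13 genes of RNA polymerase II only *Polr2i* had a peak, and of the 5 genes of RNA polymerase I none had an assigned peak. All 3 genes of the TFII-I family, *Gtf2i*, *Gtf2ird1* and *Gtf2ird2*, had an assigned peak. That of *Gtf2ird2* had 8 and 0 in control and 12 and 17 in Taf4asKO libraries, with a mean under the minimum of 10. Peaks were also assigned to 2 of 7 genes of TFIIIA and TFIIIC, *Gtf3c5* and *Gtf3c6*. Elongation factors had 1 of 10, *Ell2*, and *Taf15* was the only 1 of 4 remaining genes named after TBP or a TAF. No assigned peak was found at the 7 genes of TFIIH, the 8 genes of the other general factors of RNA polymerase II and the 4 genes of SL1, the TBP complex of RNA polymerase I. These differences between complexes were not tested.

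Of the 34 peaks, 28 were centred within 1000 bases of the assigned start (82.4%), compared with 67.4% of all peaks of coding genes, and 25 were within 500 bases. These 28 are called start peaks here. The 6 others included the *Taf4* peak inside an exon, which is kept apart, a *Taf4* peak 3245 bases upstream, and second peaks of *Med15*, *Med29* and *Gtf3c6*. The centre was upstream of the start in 17 of 28 start peaks (60.7%, all coding start peaks 74.5%). At 4 of 28 (14.3%, all coding start peaks 14.3%) another coding gene started on the opposite strand within 1000 bases of the peak centre, so that the peak may belong to either gene. These were *Med19* with *Tmx2*, *Med21* with *Tm7sf3*, *Med29* with *Paf1*, and *Polr2i* with *Tbcb*.

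The sequences under the strongest members, *Med19* and *Med29*, and under *Taf1*, the strongest TFIID start peak, show how the CCAAT pentamers are arranged. They were read from GRCm38 (mm10) on the strand of the gene, 5′ to 3′, with CCAAT and its reverse complement ATTGG in capitals and 12 bases on either side. The *Med19* peak held 4 pentamers in its central 200 bases, the most among the members, and the pentamer outside the long stretch is given on its own. *Med29* and *Taf1* held 3 each. *Polr2i* and *Taf6l*, whose control means of 149.5 and 152.5 were above the 132 of *Taf1*, held 3 and 1 and are shown further below.
Med19, outermost pentamer (chr2:84678155-84678183, plus strand): tgtagatctcttATTGGatgctataatag
Med19, other pentamers (chr2:84678196-84678356, plus strand): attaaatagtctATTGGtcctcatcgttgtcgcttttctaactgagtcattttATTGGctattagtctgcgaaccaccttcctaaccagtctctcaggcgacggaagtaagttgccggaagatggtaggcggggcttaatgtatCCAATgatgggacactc
Med29 (chr7:28392763-28392914, minus strand): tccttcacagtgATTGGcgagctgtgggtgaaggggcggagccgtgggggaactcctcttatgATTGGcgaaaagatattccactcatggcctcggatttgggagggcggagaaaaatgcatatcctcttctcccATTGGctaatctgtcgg
Taf1 (chrX:101532531-101532677, plus strand): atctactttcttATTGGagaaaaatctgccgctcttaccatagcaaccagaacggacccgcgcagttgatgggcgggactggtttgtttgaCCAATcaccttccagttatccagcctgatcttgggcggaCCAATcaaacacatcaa

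Neighbouring pentamers in *Med19* were 41, 41 and 91 bases apart. In *Taf1* they were 79 and 39 bases apart and in *Med29* 51 and 72. All 3 pentamers of *Med29* and 3 of the 4 in *Med19* read ATTGG on the gene strand. The start of *Taf4* itself held 2 pentamers 31 bases apart in opposite orientation, and this sequence is set beside the *Taf4* peak in exon 1, which holds none and lies wholly in coding sequence.
Taf4, start peak (chr2:179976821-179976880, minus strand): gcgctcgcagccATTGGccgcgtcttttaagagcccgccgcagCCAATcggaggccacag
Taf4, exon 1 peak (chr2:179975417-179975495, minus strand): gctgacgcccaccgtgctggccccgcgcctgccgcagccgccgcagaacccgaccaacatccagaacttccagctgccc

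The other peaks that are described in detail below carried 1 to 3 pentamers, each shown with 12 bases on either side. They stand for the polymerases (*Polr2i*, *Polr3k*), SAGA (*Taf6l*), the elongation factor *Ell2*, the TFII-I family (*Gtf2i*), TFIIIC (*Gtf3c6*), *Taf15* and the Mediator gene *Med1*.
Polr2i, pentamer 1 (chr7:30231792-30231820, plus strand): ttctggagctgaCCAATgcaagttctcca
Polr2i, pentamer 2 (chr7:30231823-30231851, plus strand): taacatggccagCCAATcgctgctgttct
Polr2i, pentamer 3 (chr7:30231876-30231904, plus strand): gggtacgtccaaCCAATcccgagaggcct
Polr3k, pentamers 1 and 2 (chr2:181864262-181864323, plus strand): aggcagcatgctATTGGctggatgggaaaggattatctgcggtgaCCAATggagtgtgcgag
Polr3k, pentamer 3 (chr2:181864390-181864418, plus strand): agacggcttttgATTGGgcgcctgcacca
Taf6l (chr19:8786311-8786339, minus strand): agacggccaccgATTGGctccgcatatgg
Ell2, pentamer 1 (chr13:75707396-75707424, plus strand): ggtgaagagcagCCAATgagggaggctct
Ell2, pentamer 2 (chr13:75707426-75707454, plus strand): tggggattcagaCCAATgaacagagtcca
Gtf2i (chr5:134313843-134313871, minus strand): ccttcgctcctgATTGGctgggagggctc
Gtf3c6 (chr10:40258191-40258219, minus strand): tgaggataatagCCAATcacacgccagtg
Taf15 (chr11:83473050-83473078, plus strand): tgccgcgcgctgATTGGctgccgagggcc
Med1 (chr11:98193393-98193421, minus strand): gtgaattctgagCCAATcggagccgggcc

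CCAAT on either strand occurred within the central 200 bases in 25 of 28 start peaks (89.3%), close to the 88.1% of all 2586 coding start peaks. At least 2 pentamers were found in 14 of 28 against 51.0% of all coding start peaks. The start peaks without one were those of *Polr3gl*, *Med15* and the *Taf8* peak 11 bases from its start, whereas the other *Taf8* peak, 288 bases inside the gene, held 2. Among the 6 peaks away from starts, 2 held CCAAT (33.3%, all coding peaks away from starts 72.2%). The 46 pentamers of the start peaks lay at a median of 65 bases upstream of the start, as did the 4174 of all coding start peaks, and 22 of 46 were on the strand of the gene. Their quartiles were -130 and 7.25 bases from the start, with upstream negative, against -132 and -14 for all coding start peaks.

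A fuller NF-Y motif, with purines at both positions before CCAAT and C or G followed by a purine after it, was matched by 24 of the 46 pentamers (52.2%, all coding start peaks 43.5%) and occurred in 19 of 28 start peaks (67.9% against 56.2%). The GC box core GGGCGG, searched on both strands, where a match can share its end bases with CCAAT, was in 16 of 28 (57.1% against 56.7%). TATAAA, the core of the TATA box, was in 0 of 28, and in 91 of the 2586 coding start peaks (3.52%). These are matches of letters in a window and were not tested for a difference.

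**Figure D1:**
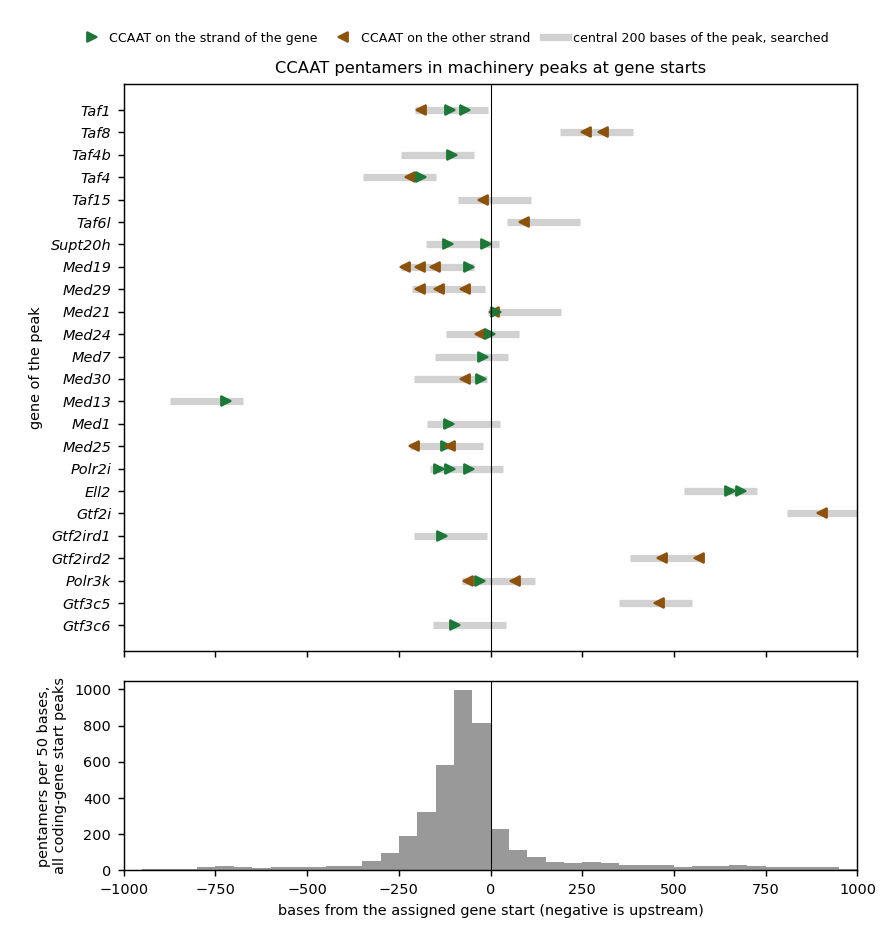
Position of CCAAT pentamers around gene starts, in bases from the assigned start with negative values upstream. The upper panel has a row for each of 24 machinery start peaks with a pentamer, where the grey bar is the central 200 bases that were searched and the triangles give each pentamer and its strand. The lower panel counts the 4174 pentamers of all coding start peaks in steps of 50 bases. Most members have their pentamers within 250 bases upstream, and those of *Ell2*, *Gtf2i*, *Gtf2ird2*, *Gtf3c5*, *Med21*, *Taf6l* and *Taf8* lie downstream.

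Binding at the machinery starts covered a wide range. The median of their mean values was 47.5, against 55.5 for all coding start peaks, with a range of 6.5 to 408. *Med19*, a Mediator subunit that links the complex to some DNA-binding factors, had the highest value and ranked 84 among the 7196 peaks. It was followed by *Med29* at rank 194. The plot of values by library shows both genes apart from all other members, and *Polr2i*, *Taf6l* and *Taf1* next to each other well above most peaks.

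**Figure D2:**
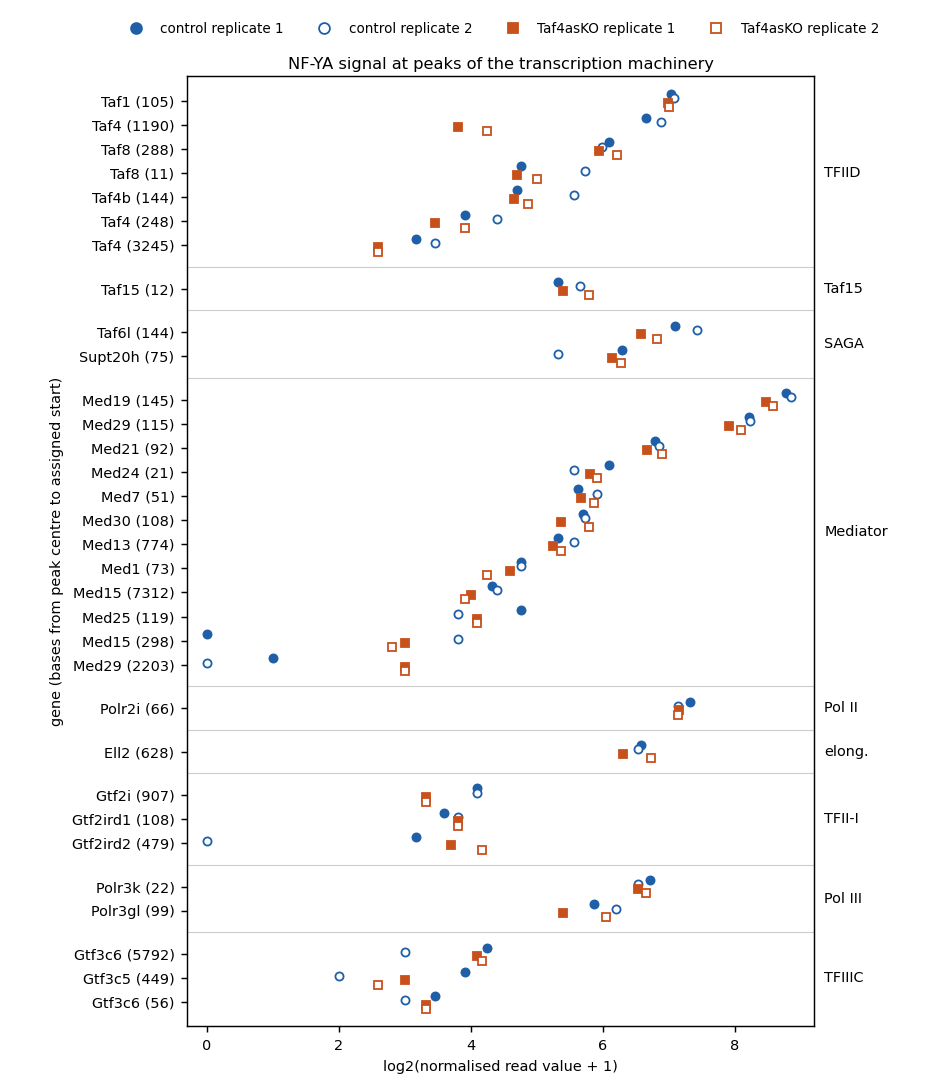
Normalised read values of 32 machinery peaks on a log2(value + 1) axis, by complex and by control mean within each complex, with the distance in bases from peak centre to assigned start in brackets. Blue circles are control and orange squares Taf4asKO libraries, filled for replicate 1 and open for replicate 2. The *Taf4* peak at 1190 bases, inside exon 1, is the member whose genotypes are farthest apart among those whose mean reached 10.

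The targeted gene is given first. At the start of *Taf4*, which encodes the subunit that was deleted, NF-YA signal was weak in all libraries. The peak (chr2:179976855-179976933, 248 bases upstream of the start) had 14 and 20 in control and 10 and 14 in Taf4asKO libraries. The genotypes met at 14, and the log2 fold change of Taf4asKO over control was -0.47 (SE 0.40, limma adjusted p 0.550). It ranged from -0.71 without control replicate 1 to -0.22 without control replicate 2, with -0.24 without Taf4asKO replicate 1, and was -0.25 when centred by strong peaks. Only about 6.13 reads stood behind the value of 20 in control replicate 2. A peak 3245 bases upstream had 8 and 10 in control and 5 and 5 in Taf4asKO libraries and was under the minimum mean of 10 for the test.

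The *Taf4* peak inside exon 1 was stronger in control cells and fell in Taf4asKO cells. It lies 1190 bases downstream of the start, in coding sequence and 4 bases from the 3′ edge of this exon of 1234 bases. Its values were 99 and 117 in control and 13 and 18 in Taf4asKO libraries, a 6.97-fold lower mean (limma adjusted p 0.00112, log2 fold change -2.74 with an SE of 0.25). The lowest control value was well above the highest Taf4asKO value. An exact two-sided permutation test of the 4 values gave p = 0.333, which is the smallest that 2 libraries per genotype allow. The call was lost when any 1 library was left out, with log2 fold changes of -2.96 to -2.52 and limma adjusted p of 0.187 without control replicate 1, 0.254 without control replicate 2, 0.739 without Taf4asKO replicate 1 and 0.596 without Taf4asKO replicate 2. Each such fit has a genotype with a single library, whose spread is taken to be that of the other genotype, and none of them called any peak, so that this loss says little about the stability of the peak. The call was also lost without the variance trend (0.0689) and without the minimum mean (0.164). In each of these 6 fits, libraries left out included, limma called 0 peaks of the whole table, while 227 to 1089 had an unadjusted p under 0.05, so that the calls at other exon peaks below were lost in them too.

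The table holds 6 further peaks over exons of *Taf4* that were too far from a start to be assigned to a gene, and which the name rule therefore did not take. With the exon 1 peak there were 7 peaks over 6 of the 15 exons, namely exons 1, 2, 3, 7, 8 and 15, with 2 over exon 15. Exons are numbered as in an annotated transcript, and no peak overlapped its exons 11 and 12. That these are the loxP-flanked exons is assumed, since the study names no transcript. Of the 6 unassigned peaks, 4 lay wholly within the exon and the peaks over exons 2 and 7 reached 6 and 46 bases beyond it. All 6 were called, against 0.948% of 4746 tested peaks. Control values were 29 to 417, Taf4asKO values were 3 to 62, and mean signal was 7.85 to 11.3 times lower. Over exons 7, 8 and 9 of *Tbp*, the TATA-binding subunit of TFIID, 3 unassigned peaks had 50 to 189 in control and 1 to 19 in Taf4asKO libraries, and all 3 were called as well. Only 1 of these 9 peaks, in exon 15 of *Taf4*, contained CCAAT in its centre (all peaks of coding genes 82.9%). What produced the exon signal was not tested. The plot of *Taf4* peaks shows that the exon peaks were separated by genotype, whereas the start peak was weak in both.

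**Figure D3:**
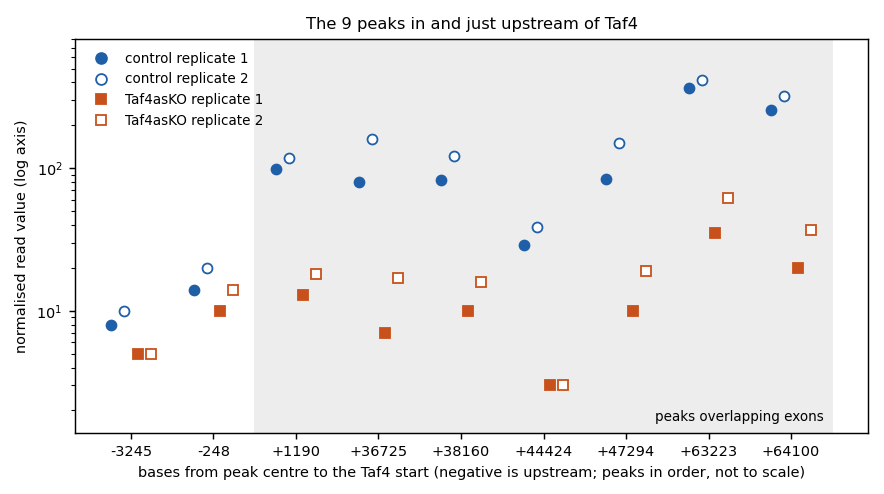
Normalised read values (log axis) at the 9 peaks in and just upstream of *Taf4*, in order of the distance in bases from peak centre to the start, not to scale. Circles are control and squares Taf4asKO libraries, filled for replicate 1 and open for replicate 2, and the shaded peaks overlap exons of *Taf4*. At each shaded peak both control values lie above both Taf4asKO values, while the values at the start peak meet. Of all tested peaks, 47.9% have genotypes that do not overlap.

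To ask whether NF-YA binding to the rest of the machinery changed, members were read from the comparison of all peaks. Of the 34 peaks 27 reached a mean of 10, and the *Taf4* exon peak was the only 1 of 27 with a limma adjusted p under 0.05 (3.70%, against 0.948% of 4746 tested peaks). Among the 24 tested start peaks 0 were called, and the smallest adjusted p was 0.163. At an unadjusted p under 0.05 there were 3 of 27 members, the *Taf4* exon peak, *Taf6l* and *Med19*, against 849 of all tested peaks (17.9%). The 2 genotypes did not overlap in 9 of 27 members (33.3%, against 47.9% of tested peaks). By fold change alone, 1 of 27 was more than 2-fold lower, again the *Taf4* exon peak (background 3.13%), and 0 of 27 were more than 2-fold higher (background 4.29%).

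The log2 fold changes of the 24 start peaks reached down to -0.77 and had a median of -0.11, beside -0.08 for all coding start peaks, and 22 of 24 were under 0.5 in size. Values were lower in Taf4asKO in 17 of 24 start peaks and in 19 of 27 tested members (all tested peaks 53.8%). This count depends on how the libraries are scaled. It was 13 of 27 when the libraries were set to equal totals and 11 of 27 when strong peaks (means of 100 or more) were used for centring, settings that moved the median of all tested peaks from -0.04 to 0.10 and 0.17 on the log2 scale. It was 14 of 27 without Taf4asKO replicate 1 and 23 of 27 without Taf4asKO replicate 2. No direction is therefore read from it.

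Across all coding start peaks the fold change depended on peak strength, and members were set beside peaks of like strength. At means of 100 or more, all 6 members were lower, with a median of -0.15, and so were 85.6% of 776 coding start peaks, with a median of -0.22. This too depends on the scaling, since 3 of the 6 members and 67.3% of the coding start peaks were lower at equal totals. At means of 50 to 100 the 7 members had a median of 0.00 and the 592 coding start peaks -0.05. At means of 10 to 50, 8 of 11 members were lower, with a median of -0.19, whereas 36.1% of 971 coding start peaks were lower and their median was 0.15. In this weakest range the members had the lower median under each scaling, but the counts moved. At equal totals 7 of 11 members and 24.5% of the coding start peaks were lower, and when centred by strong peaks 5 of 11 and 18.5%. Without control replicate 2 it was 6 of 11 and 45.6%, with medians of -0.02 and 0.05. The difference was not tested.

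**Figure D4:**
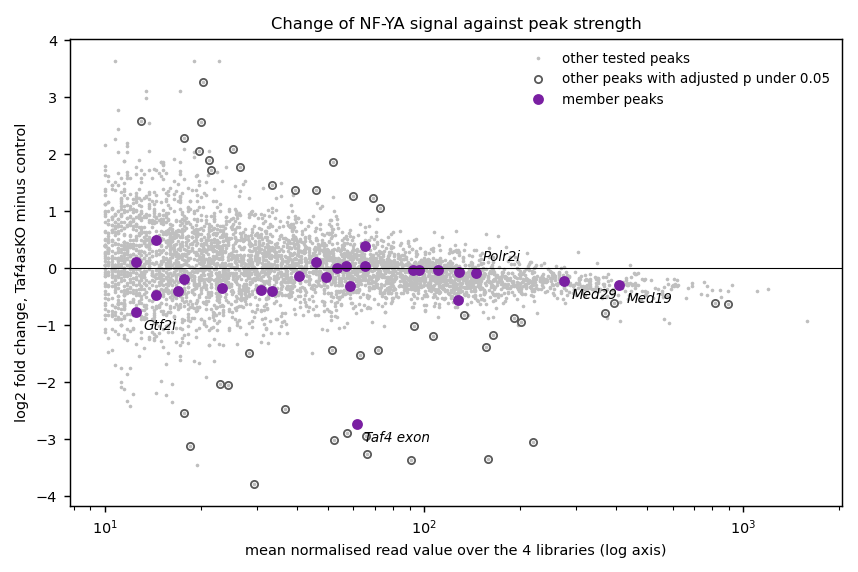
Log2 fold change of NF-YA signal, Taf4asKO minus control, against the mean normalised read value of each tested peak (log axis). Purple points are 26 tested machinery peaks, grey points all other tested peaks and open circles the other peaks with a limma adjusted p under 0.05. The *Taf4* exon peak at -2.74 stands apart from the other machinery peaks, which reach down to -0.77.

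Among the Mediator genes, *Med19* had 437 and 460 in control and 352 and 382 in Taf4asKO libraries (log2 fold change -0.29, SE 0.12, limma adjusted p 0.239). *Med29*, another subunit of the complex, had 294 and 297 in control and 239 and 271 in Taf4asKO libraries (-0.21, SE 0.13, limma adjusted p 0.408). Both control values were above both Taf4asKO values at these strongest members, by less than what passes the test. The genotypes did not overlap in 47.9% of all tested peaks. With libraries set to equal totals the log2 fold change was -0.14 for *Med19* and -0.070 for *Med29*, and centring by strong peaks gave -0.078 and -0.0032. Without Taf4asKO replicate 1 the value for *Med29* was -0.12. *Med1*, the subunit that contacts nuclear receptors, had 26 and 26 in control and 23 and 18 in Taf4asKO libraries (-0.34, SE 0.30, limma adjusted p 0.563), a value that became -0.17 without Taf4asKO replicate 2 and -0.13 when centred by strong peaks. Its control replicate 2 value rests on about 7.97 reads. The remaining Mediator start peaks are given as ranges, chosen after their values were seen. *Med21* had 109 and 114 in control and 101 and 118 in Taf4asKO libraries, which overlapped. *Med7*, *Med13*, *Med24* and *Med30* lay between 37 and 67 in all libraries and overlapped too, and *Med25* lay between 13 and 26. *Med15*, at 0 and 13 against 7 and 6, was under the minimum. Of 10 tested Mediator peaks 8 were lower in Taf4asKO (all tested peaks 53.8%) and 0 were called (background 0.948%). The count of lower peaks was 6 at equal totals, 4 when centred by strong peaks and 6 to 10 with a library left out.

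Among the TFIID genes, *Taf1*, which encodes the largest subunit and the scaffold of the complex, had the strongest assigned peak, with close values in all libraries. It had 130 and 134 in control and 125 and 127 in Taf4asKO libraries (log2 fold change -0.07, SE 0.16, limma adjusted p 0.851). *Taf8*, a partner of TAF10 in TFIID, had 67 and 62 in control and 60 and 73 in Taf4asKO libraries at the peak with CCAAT, and 26 and 52 against 25 and 31 at the peak 11 bases from its start. *Taf4b*, the paralog of *Taf4*, had 25 and 46 in control and 24 and 28 in Taf4asKO libraries (-0.38, SE 0.33, limma adjusted p 0.554). In the latter pair of peaks control replicate 2 was the high library and the other 3 were close together. In SAGA, *Taf6l*, a paralog of the TFIID subunit gene *Taf6*, had 135 and 170 in control and 94 and 112 in Taf4asKO libraries (-0.56, SE 0.18, limma adjusted p 0.163). The value was -0.35 when centred by strong peaks and ranged from -0.72 to -0.39 with a library left out. The genotypes did not overlap (all tested peaks 47.9%), and this was the smallest adjusted p of a start peak. *Supt20h* had 77 and 39 in control and 69 and 76 in Taf4asKO libraries, where control replicate 2 was the low library. *Taf15*, an RNA-binding protein of the FET family that also associates with TFIID, had 39 and 49 in control and 41 and 54 in Taf4asKO libraries (0.10, SE 0.25, limma adjusted p 0.852). It was 0.25 at equal totals and 0.32 when centred by strong peaks, and turned to -0.057 without control replicate 1 and -0.091 without Taf4asKO replicate 2, so that no direction can be given.

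Among the polymerase genes, *Polr2i*, a small subunit of RNA polymerase II, had 159 and 140 in control and 141 and 140 in Taf4asKO libraries (log2 fold change -0.09, SE 0.16, limma adjusted p 0.797). *Polr3k*, a small subunit of RNA polymerase III, had 104 and 91 in control and 91 and 99 in Taf4asKO libraries (-0.04, SE 0.18, limma adjusted p 0.933). At both starts the genotypes overlapped. *Polr3gl*, the paralog of *Polr3g*, lay lower in Taf4asKO replicate 1 than elsewhere, at 41 against 57 to 72 in the other libraries. The starts whose peak was assigned to a neighbour stood at 116 and 124 against 96 and 124 for *Polr1d*, and 84 and 72 against 54 and 72 for *Gtf2e1*, control libraries first. In the same order, a second *Gtf2e1* peak had 28 and 20 against 19 and 23, and *Gtf3c2* had 3 and 16 against 13 and 7.

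*Ell2*, an elongation factor of the super elongation complex, had 94 and 91 in control and 78 and 105 in Taf4asKO libraries, so that the Taf4asKO libraries lay on either side of control (log2 fold change -0.03, SE 0.20, limma adjusted p 0.947). *Gtf2i*, which encodes the signal-responsive factor TFII-I, was the largest decrease among tested start peaks. Its values were 16 and 16 in control but 9 and 9 in Taf4asKO libraries (-0.77, SE 0.40, limma adjusted p 0.340). Its peak was 907 bases inside the gene, and about 4.91 reads stood behind the value of control replicate 2. *Gtf2ird1* had 11 and 13 in control and 13 and 13 in Taf4asKO libraries, and *Gtf2ird2* 8 and 0 against 12 and 17. The TFIIIC genes were bound weakly. *Gtf3c6* had 10 and 7 in control and 9 and 9 in Taf4asKO libraries at its start, and *Gtf3c5* 14 and 3 against 7 and 5, where the 3 in control replicate 2 is about 1 read.

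Among the peaks away from starts, a *Med29* peak inside the gene, at 1 and 0 in control but 7 and 7 in Taf4asKO libraries, was too weak to be tested. The second peaks of *Med15*, at 19 and 20 against 15 and 14, and of *Gtf3c6*, at 18 and 7 against 16 and 17, were tested and not called. Genes that work with the machinery but fall outside the name rule were looked up as well, beside a background of 0.948% of tested peaks called and 17.9% with an unadjusted p under 0.05. Integrator, a complex that cleaves nascent RNA, had peaks at 5 of 14 genes, with 5 peaks tested, 0 called, 0 at an unadjusted p under 0.05 and a median log2 fold change of -0.19. Elongation partners had peaks at 8 of 28 genes, with 8 tested, 0 called, 0 at an unadjusted p under 0.05 and a median of -0.07. Polymerase partners had peaks at 6 of 29, with 4 tested, 0 called, 1 at an unadjusted p under 0.05 and a median of 0.17.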

How the data were processed

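NF-YA CUT&RUN was compared between cultured control and Taf4asKO MuSCs, with 2 libraries each. Per the labels, the authors trimmed reads with Trimmomatic 0.39, aligned them to mm10 with STAR 2.7.11a, removed duplicates with Picard 3.1.1, counted reads in merged peaks and normalised with DESeq2 1.36.0. The deposited scores are these normalised reads, rounded to whole numbers, for 7196 peaks, each assigned by the authors to the nearest gene starting within 10000 bases. Peak positions are given as in the table. What 1 read is worth was worked out from the regular gaps between values, a search checked beforehand on simulated data. Since a read was worth less than the rounding unit in the Taf4asKO libraries, no count model was run.

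For the 4746 peaks whose mean reached 10, log2(value + 1) was fitted by genotype in limma 3.58.1 (R 4.3.3), using a variance trend. This scale understates fold changes where values are low. The p-values were adjusted by Benjamini-Hochberg over all tested peaks with a threshold of 0.05. The fit was tested on simulated data. Start peaks, motifs and gene counts used GENCODE M21 and GRCm38 with Python 3.11.15, pandas 2.3.3, scipy 1.17.1 and pysam 0.24.0, and intervals are 95% Wilson intervals that cover counting error only. Reads behind a value are those that the authors counted after removal of duplicates.

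The members and lists were chosen with earlier results of these data known. Peaks named in detail were all peaks of *Taf4* and *Tbp*, members called by limma, and the strongest and the most changed start peak of each complex. Added to these were the 5 highest control means and, among tested start peaks only, the 5 largest increases and decreases without overlap. Other peaks are named for completeness, after their values were seen. Alternatives were other scalings, no minimum or a minimum of 20, a pseudocount of 5, no variance trend, a replicate block, leaving out each library, and other thresholds and windows. Centring on strong peaks (means of 100 or more) and omission of the *Taf4* exon peak from the median were added after the data were seen. A gene that the rules would name is not reported here, although the counts include it, and it is left out of the figures.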

Additional observations from a re-analysis of the deposited data

How the results depend on the processing

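The *Taf4* exon peak stayed negative under every alternative run and stayed called under the other scalings, a minimum of 20, a pseudocount of 5 and the replicate block (log2 fold change -2.74, limma adjusted p 0.00144). It kept its fold change of -2.74 but lost the call without the minimum and without the variance trend, and ranged from -2.96 to -2.52 when a library was left out, with no call. The number of called members was 1, and 0 without the minimum, without the trend and with any library left out (lowest 0, highest 0). Calls over all tested peaks were 45, with 141 at equal medians, 126 at a minimum of 20, 131 at an adjusted p under 0.1, 0 without the minimum, 0 without the trend and 0 to 0 with a library left out, where limma still gave 227 to 1089 peaks with an unadjusted p under 0.05. With the replicate block there were 31 calls. Library numbers were not shown to pair the samples, since the deviations of the 2 pairs correlated at -0.09 over all tested peaks and 0.26 over strong ones. Centred on strong peaks (means of 100 or more), the median of the members was 0.076, with 11 lower. By fold change alone at 1.5-fold, 2 members were lower, the *Taf4* exon peak and *Gtf2i*, and 0 higher, beside 9.66% and 11.7% of the 4689 peaks with a mean above 10. None of the 11 other named and tested peaks was called under any alternative, and 5 changed sign, all near 0. At equal totals and centred on strong peaks, the log2 fold changes became 0.058 and 0.13 for *Polr2i*, 0.11 and 0.18 for *Polr3k*, 0.077 and 0.14 for *Taf1*, and 0.11 and 0.18 for *Ell2*. With a library left out they spanned -0.18 to 0.0051 for *Polr2i*, -0.13 to 0.060 for *Polr3k*, -0.091 to 0.30 for *Taf15* and -0.24 to 0.18 for *Ell2*. The cause of these changes was not tested. Depth limits the weak peaks most, since in control replicate 2 a value of 10 is about 3 reads.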

Other observations

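Peaks inside other machinery genes lay too far from a start to be assigned, and they were chosen here after their values were seen. An intron of *Ell*, an elongation factor of RNA polymerase II, held a peak with CCAAT. It stood at 15 and 20 in control but 32 and 31 in Taf4asKO libraries (log2 fold change 0.83, SE 0.30, limma adjusted p 0.193). Its genotypes did not overlap (all tested peaks 47.9%). An intron of *Cdk8*, the kinase of Mediator, had 3 and 0 in control but 13 and 13 in Taf4asKO libraries without a CCAAT in its centre, and its mean was under the minimum. Introns of *Taf3* and *Med13l* each held a peak with CCAAT and overlapping values, with 18 and 10 against 17 and 12 at *Taf3* and 15 and 16 against 19 and 14 at *Med13l*. Introns of *Gtf2i* and *Polr1a* held weak peaks of 8 or less in all libraries.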
